A study of Mus musculus with 9 samples.

Results

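Open chromatin was compared in alphaTC1 cells, a mouse pancreatic alpha cell line derived from a glucagonoma, 5 days after transduction with an shRNA against Atrx or with an empty vector. The 6 libraries compared (3 with Atrx shRNA, 3 with empty vector) were taken by their treatment label from the 9 ATAC-seq libraries of the study. The other 3 carry an shRNA against Smndc1, a splicing factor gene, at the same time after transduction. They were used to filter and scale the counts, to estimate the spread and as a second group to set the Atrx shRNA libraries against. All 9 come from the same cell line and differ, as far as the labels go, in the transduced construct alone. ATAC-seq reads open chromatin through the insertion of a transposase, and the values are counts in 80827 regions shared by all libraries, of which 80345 passed a filter on low counts and 482 did not. An shRNA acts on RNA, so accessibility at the Atrx gene is no check of the knockdown. The 2 tested regions at Atrx ran between a log2 fold change of -0.08 and 0.35, with a smallest adjusted p of 0.707.

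ATRX is an ATPase of the SWI/SNF family. With its partner DAXX it places a replacement variant of histone H3 at repeats, at the regions beside centromeres and at telomeres, and it reads methylation marks of heterochromatin through its ADD domain. Loss of ATRX or DAXX is a recurrent lesion of human pancreatic neuroendocrine tumours, and pancreatic alpha cells are the islet cells that make glucagon.

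The libraries held 5290810 to 6843060 counts with Atrx shRNA and 5827316 to 8145228 with empty vector. They differed in contrast, meaning how far strong regions stood above weak ones. The strongest 10% of regions took 48.83%, 44.19% and 38.6% of the counts in Atrx shRNA replicates 1, 2 and 3, and 45.54%, 46.28% and 38.8% in empty vector replicates 1, 2 and 3, so replicate 3 was low in both groups. Of 8 alpha cell markers, 7 had a region (Gc had none), and their summed levels were 684 to 909 CPM (counts scaled to an equal library size, with the offsets described below) with Atrx shRNA and 619 to 776 CPM with empty vector. Of 7 beta cell markers 5 had a region (Ins1 and Ucn3 had none), with sums of 155 to 219 CPM with Atrx shRNA and 153 to 229 CPM with empty vector. Of 3 delta and PP cell markers 2 had a region (Hhex had none), with sums of 58.4 to 59.6 CPM with Atrx shRNA and 54.6 to 58.2 CPM with empty vector, which did not overlap. Of 5 fibroblast markers 4 had a region (Lum had none), with sums of 253 to 260 CPM with Atrx shRNA and 267 to 289 CPM with empty vector, also without overlap. Such gaps are not rare: of all tested regions 7.31% lay wholly higher and 7.6% wholly lower with Atrx shRNA. In the delta and PP and the fibroblast sets 0 regions were called. Of 5 macrophage markers 4 had a region (Lyz2 had none), with sums of 196 to 235 CPM with Atrx shRNA and 173 to 220 CPM with empty vector. Of 6 acinar markers 3 had a region, with sums of 34.7 to 41.6 CPM with Atrx shRNA and 34.1 to 44.9 CPM with empty vector, and of 3 duct markers 2, with 79.7 to 108 CPM with Atrx shRNA and 66.7 to 80.4 CPM with empty vector. The part of these levels in the results was not tested. An open region at a gene does not show that the gene is transcribed, and a change in a share of the cells cannot be told apart from a change in every cell.

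For 5 genes the promoter at an annotated transcription start where a region was called is printed, to show the DNA that lies inside those regions. Accessibility rose with Atrx shRNA at 3 (Bbc3, Bax and Cdkn2c) and fell at 2 (Fhdc1 and Gng7). The sequences are from RefSeq on GRCm38.p6 and run from 250 bases before to 50 after the start, in the direction of the gene. Capitals mark the GC box GGGCGG and the CCAAT box CCAAT, each on either strand. Bbc3 lies at chr7:16310011-16310310 on the plus strand, Bax at chr7:45466849-45467148 on the minus strand, Cdkn2c at chr4:109665323-109665622 on the minus strand, Fhdc1 at chr3:84480390-84480689 on the minus strand and Gng7 at chr10:81014876-81015175 on the minus strand.
Bbc3: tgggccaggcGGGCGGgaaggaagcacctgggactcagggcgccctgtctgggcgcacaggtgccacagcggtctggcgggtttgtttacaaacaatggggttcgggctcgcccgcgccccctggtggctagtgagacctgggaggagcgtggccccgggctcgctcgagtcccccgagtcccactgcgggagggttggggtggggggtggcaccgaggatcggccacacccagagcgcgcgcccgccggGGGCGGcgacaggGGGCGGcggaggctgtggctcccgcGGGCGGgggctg
Bax: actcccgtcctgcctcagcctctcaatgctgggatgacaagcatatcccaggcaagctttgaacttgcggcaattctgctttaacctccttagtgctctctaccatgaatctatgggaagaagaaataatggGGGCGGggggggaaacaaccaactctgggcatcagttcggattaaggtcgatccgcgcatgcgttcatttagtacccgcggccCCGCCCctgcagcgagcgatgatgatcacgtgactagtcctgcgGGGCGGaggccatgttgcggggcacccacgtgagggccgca
Cdkn2c: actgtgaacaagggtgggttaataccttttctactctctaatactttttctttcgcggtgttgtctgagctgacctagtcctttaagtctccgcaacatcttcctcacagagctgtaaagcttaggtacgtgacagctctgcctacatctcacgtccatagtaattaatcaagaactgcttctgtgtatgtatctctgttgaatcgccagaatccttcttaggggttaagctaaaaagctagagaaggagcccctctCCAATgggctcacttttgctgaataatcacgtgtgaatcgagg
Fhdc1: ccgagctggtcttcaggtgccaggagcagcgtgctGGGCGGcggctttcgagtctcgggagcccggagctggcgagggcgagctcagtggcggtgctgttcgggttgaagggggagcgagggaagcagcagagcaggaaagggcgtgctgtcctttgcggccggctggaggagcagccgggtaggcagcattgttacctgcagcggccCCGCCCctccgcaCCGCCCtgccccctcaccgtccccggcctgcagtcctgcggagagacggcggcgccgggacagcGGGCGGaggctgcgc
Gng7: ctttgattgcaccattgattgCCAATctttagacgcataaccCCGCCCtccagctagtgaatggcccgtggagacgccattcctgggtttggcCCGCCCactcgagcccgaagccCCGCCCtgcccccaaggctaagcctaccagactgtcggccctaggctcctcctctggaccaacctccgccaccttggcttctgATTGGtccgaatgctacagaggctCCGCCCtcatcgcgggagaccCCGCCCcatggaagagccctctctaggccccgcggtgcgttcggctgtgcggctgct
The called region covers all 300 bases in Bbc3, Cdkn2c, Fhdc1 and Gng7 and 206 of them in Bax. The Bbc3 and Cdkn2c regions lie inside the gene bounds, over 500 bp from either end. The starts printed for these genes are therefore not at the outer end of the gene. The printed Bbc3 promoter is 74.7% G and C with 30 CpG, and that of Cdkn2c is 44.0% with 8 CpG. These are the highest and lowest shares of G and C among the 10 starts whose region rose. Fhdc1 has 72.3% with 30 CpG and Gng7 63.7% with 20 CpG.

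With Atrx shRNA, 158 regions rose and 60 fell out of 80345 tested when the difference in contrast between libraries was first removed (0.271% of the tested regions, 0.197% up and 0.0747% down). Regions that rose lay at Irx1, Nkx6-1, Pax6 and Nkx2-2, transcription factor genes of islet cells, at the cell cycle inhibitor genes Cdkn1a, Cdkn1b and Cdkn2c, and at the cell death genes Bbc3 and Bax. Regions that fell lay beside the glucagon gene Gcg, at Mafa and at Rubcn. These calls come from the quasi-likelihood F test of edgeR with an offset per library and region (a loess curve of each library on the mean count, called trended offsets here) and a Benjamini-Hochberg adjusted p under 0.05. With the usual single factor per library (TMM) the same edgeR test called 0 regions (0.0%), with a smallest adjusted p of 0.202 and 4618 regions (5.75%) at an unadjusted p under 0.05. DESeq2 with TMM also called 0, with 3934 regions (4.9%) at an unadjusted p under 0.05, and so did limma voom, with 4394 (5.47%). With trended offsets 7711 regions (9.6%) had an unadjusted p under 0.05; DESeq2 called 184 there (6740, or 8.39%, unadjusted), of which 162 were among the 218, and limma voom called 0 (6127, or 7.63%, unadjusted). All 158 and all 60 kept their sign with TMM, and 149 and 47 of them had an unadjusted p under 0.05 there. The regions were chosen on these same counts, so this is no separate support for them. Every statement below that a region rose or fell rests on the trended offsets. Most calls did not pass the threshold once 1 library was left out. Of the 218, 199 were lost without Atrx shRNA replicate 1, 190 without replicate 2 and 58 without replicate 3. Without empty vector replicates 1, 2 and 3, 194, 184 and 122 were lost. Without Smndc1 shRNA replicate 1, which enters the fit through the filter, the offsets and the spread, 71 were lost. All 218 kept their sign in these fits, but they were chosen on the same libraries, so a kept sign adds no support.

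The regions that rose did so by a median of 0.847 on the log2 scale (0.44 to 2.18), and those that fell by a median of -0.649 (-2.06 to -0.41), against a median of -0.017 over all regions tested. In 154 of the 158 all Atrx shRNA libraries lay above all empty vector libraries, and in 60 of the 60 all lay below. Of all tested regions 7.31% and 7.6% show the same separation. The calls were chosen on these same libraries, so their separation follows from the choice and adds no support. The regions that rose had a median width of 744 bp and those that fell of 638 bp. Of the 823 regions over 1500 bp wide 14 rose and 1 fell (1.7% and 0.122%, against 0.197% and 0.0747% over all regions). These wide regions are also strong, with a median level of 45.48 CPM against 5.56 CPM over all regions. Of the strongest 10% of all regions 0.548% rose and 0.311% fell. The parts of width and level were not tested. Gene ends, defined as 1000 bp outside to 500 bp inside either bound of a coding gene, held 15.8% of the tested regions, 40 of those that rose and 21 of those that fell (0.315% and 0.165% of the regions there). Gene bodies held 41.8% of the tested regions, with 71 rises and 16 falls (0.211% and 0.0476%), and the space between genes 42.4%, with 47 and 23 (0.138% and 0.0675%). Calls came mostly from strong regions: the strongest 10% held 44 that rose and 25 that fell, and the weakest 10% held 0 and 0.

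**Figure D1:**
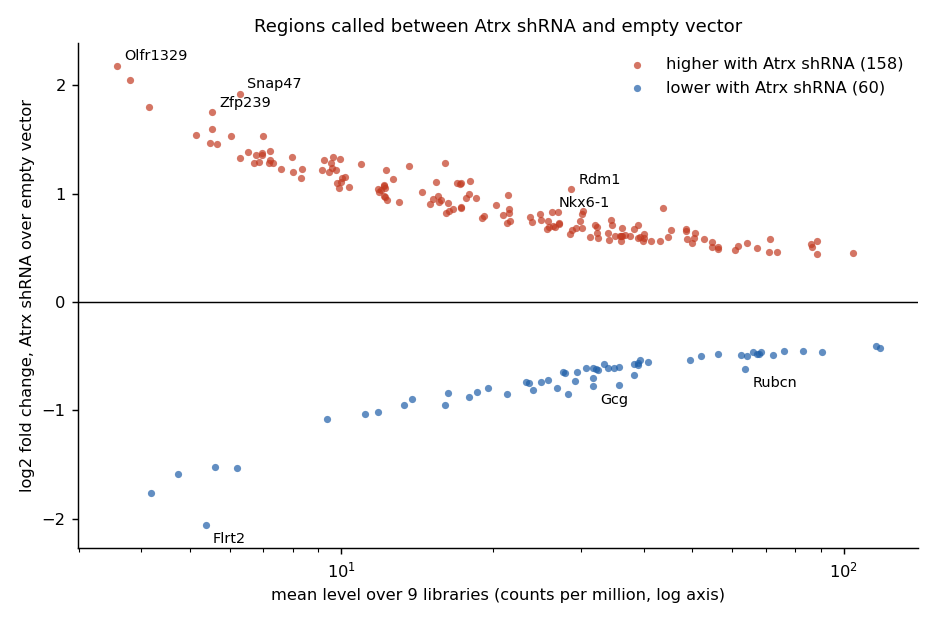
Log2 fold change of Atrx shRNA over empty vector (vertical axis) against the mean level over 9 libraries in CPM (horizontal log axis) for the 218 called regions, with a few named by gene. The 158 regions that rose span 0.44 to 2.18 and the 60 that fell span -2.06 to -0.41, and the size of the change needed for a call shrinks as the level grows.

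The region beside Gcg, which encodes glucagon, the hormone that defines alpha cells, was less open with Atrx shRNA. It lies at chr2:62473246-62474358, 0.17 kb outside the 3' end of the gene and 9.85 kb past its start. Its offset-corrected level was 15.4, 19.8 and 24.4 CPM in the Atrx shRNA libraries and 41.4, 32.0 and 27.7 CPM in the empty vector libraries. The groups did not overlap, and the nearest libraries were replicate 3 of each. The log2 fold change was -0.78 ± 0.16 (SE), with means of 19.9 ± 4.51 CPM with Atrx shRNA and 33.7 ± 7.0 CPM with empty vector (SD, n = 3 each; adjusted p = 0.00332, edgeR). The call was lost without Atrx shRNA replicate 1 or 2 or empty vector replicate 1, with adjusted p up to 0.257 and log2 fold changes of -0.96 to -0.60. The 7 tested regions within 10 kb of Gcg, this one included, ran between -0.78 and 0.37 with a median of -0.04, and the others did not pass the test.

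Among islet transcription factor genes, regions of Irx1 and Nkx6-1 rose with the smallest adjusted p. Irx1, an Iroquois homeobox gene expressed in alpha cells, rose at a region inside the gene (chr13:71959221-71959757), with 26.7, 16.1 and 17.4 CPM with Atrx shRNA and 9, 10.3 and 8.97 CPM with empty vector. Every Atrx shRNA library was above every empty vector library, with replicate 1 the highest (log2 fold change 1.1 ± 0.22, adjusted p = 0.00241, edgeR). A second Irx1 region, 0.7 kb outside an end of the gene (chr13:71956211-71957527), had 32.4, 37.4 and 20.9 CPM with Atrx shRNA and 20.8, 16.5 and 17.8 CPM with empty vector. There the lowest Atrx shRNA library nearly touched the highest empty vector library (0.72 ± 0.17, adjusted p = 0.02). All 6 regions at Irx1 had a positive log2 fold change, between 0.24 and 1.1. Nkx6-1, a homeobox factor of beta cell identity, rose at a region 1.54 kb past its start (chr5:101662678-101663669), with 31.4, 33.7 and 26.7 CPM with Atrx shRNA and 16, 19.7 and 15.8 CPM with empty vector. The groups stood well apart (0.83 ± 0.17, adjusted p = 0.00426). The inner Irx1 region lost its call without Atrx shRNA replicate 1 or empty vector replicate 1, with adjusted p up to 0.247. The Nkx6-1 region lost it without Atrx shRNA replicate 1 or 2 or empty vector replicate 1, up to 0.127. The outer Irx1 region lost it without Atrx shRNA replicate 1 or 2 or any one of the empty vector libraries, up to 0.391.

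Other called regions of islet transcription factors had larger adjusted p-values. Pax6, needed for endocrine cells and for glucagon transcription, rose at a region inside the gene (chr2:105676067-105676567) to 25.8, 22.4 and 19.5 CPM with Atrx shRNA, against 13.2, 14.4 and 11.3 CPM with empty vector (0.79 ± 0.20, adjusted p = 0.0411). Nkx2-2, a homeobox factor of endocrine precursors, stood at 25.9, 34.8 and 41.1 CPM with Atrx shRNA and 20.3, 21.0 and 24.1 CPM with empty vector, 4.2 kb past its start (0.63 ± 0.16, adjusted p = 0.0413). The groups at Nkx2-2 were close, since the lowest Atrx shRNA library was just above the highest empty vector library. Bach2, a repressor of the BACH family named after its values were seen, rose at a region inside the gene (0.73 ± 0.19, adjusted p = 0.0428). Mafa, an activator of insulin transcription in beta cells, was the islet factor whose region fell: its only tested region (chr15:75748163-75748749) had 39.9, 42.5 and 46.7 CPM with Atrx shRNA and 57.0, 66.3 and 58.8 CPM with empty vector (-0.50 ± 0.13, adjusted p = 0.0403). All 4 calls were lost without Atrx shRNA replicate 2, empty vector replicate 1 or 2 or Smndc1 shRNA replicate 1, and each in 5 or 6 of the 9 fits that left out 1 library, with adjusted p up to 0.379 at Bach2. The list of 43 endocrine transcription factors had 312 tested regions, of which 6 rose and 1 fell (2.24% called, against 0.271% over all regions). Its median log2 fold change was 0.137 (0.15 with TMM). With Smndc1 shRNA over empty vector the median of the same regions was 0.146, and both medians share the empty vector libraries. Regions of Isl1 ran to 1.97 and of Foxa2 to 0.62 without passing the test (smallest adjusted p 0.271 and 0.11), and those of Neurod1 between -0.12 and 0.55 (0.227).

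**Figure D2:**
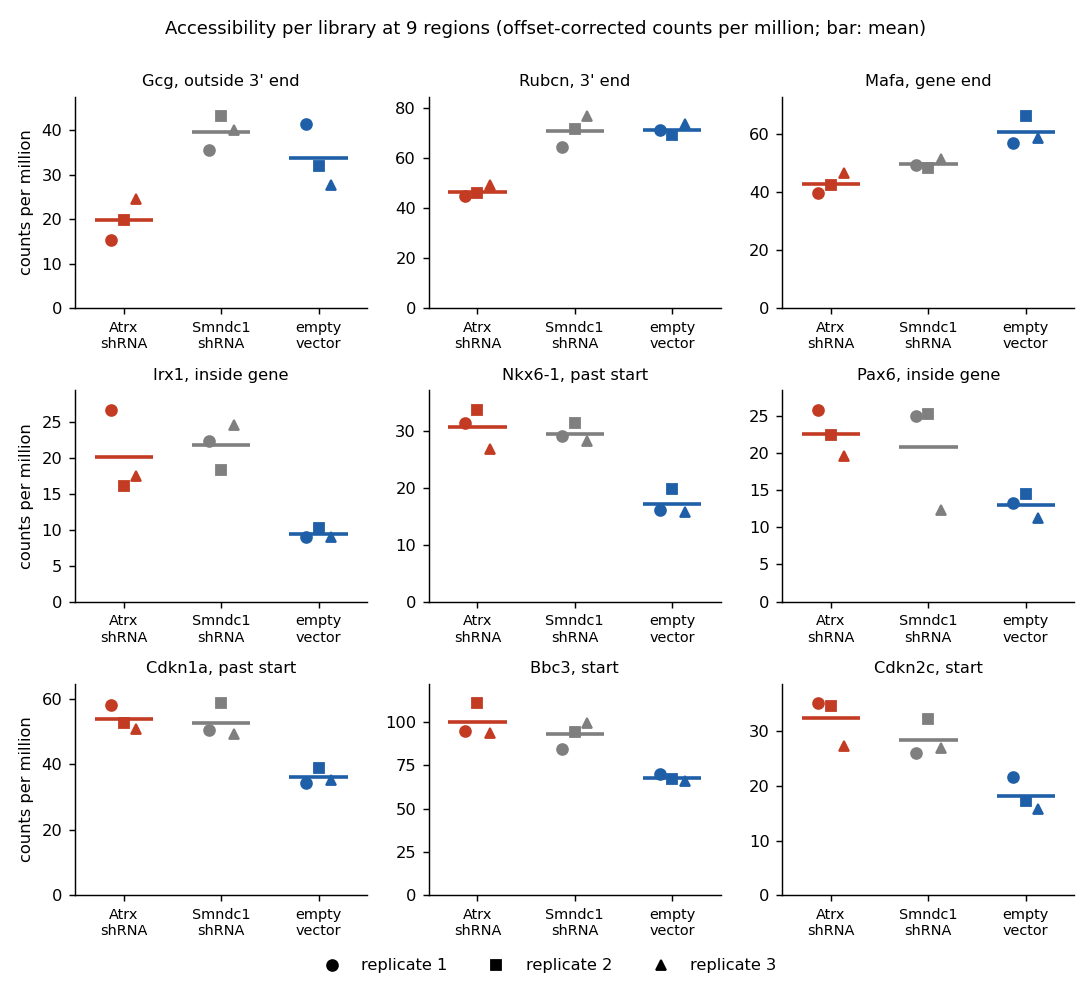
Offset-corrected accessibility in CPM (vertical axes, from 0) in each of 3 Atrx shRNA, 3 Smndc1 shRNA and 3 empty vector libraries (horizontal axis; symbols mark replicates, bars the mean) at 9 regions. At Gcg, Rubcn and Mafa every Atrx shRNA library lies below every empty vector library and below every Smndc1 shRNA library. The difference from Smndc1 shRNA was called at Gcg and Rubcn and not at Mafa. At the other 6 regions every Atrx shRNA library lies above every empty vector library.

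The hormone loci other than Gcg gave no call. Ins2 had 1 tested region (0.19, adjusted p = 0.913), Sst 2 regions (0.08 to 0.36, smallest adjusted p 0.666) and Ppy 2 regions (-0.03 to 0.02, 0.983). Ins1 had none. Pcsk2, which encodes the convertase that cuts proglucagon to glucagon, had 33 regions and 0 calls (-0.61 to 0.95, smallest adjusted p 0.137). In all, 125 regions lay within 10 kb of 22 key genes of hormones, islet regulators and ATRX partners, and 5 of them rose and 2 fell, with a median of 0.189. Over all 80345 tested regions 158 rose and 60 fell (0.197% and 0.0747%), with a median of -0.017. The H3.3 genes H3-3a and H3-3b were key genes too, but matched no single gene of the annotation and were not analysed. Of 162 regions in a list of 25 alpha cell genes 2 rose and 1 fell, and of 95 in a list of 25 beta cell genes 1 rose and 1 fell, with a median of 0.023 for both lists. These medians changed sign with 1 library left out: that of the alpha cell list was -0.06 without empty vector replicate 3, and that of the beta cell list -0.044 without Atrx shRNA replicate 1. The shares called were 1.85% and 2.11%, against 0.271% over all regions. The calls in these lists are those of Gcg, Irx1, Nkx6-1 and Mafa above. All but that of Gcg also count in the endocrine transcription factor list.

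Single regions at Cdkn1a, Bbc3 and Bax, genes that arrest the cell cycle or promote cell death, rose. Cdkn1a, which encodes the cyclin-dependent kinase inhibitor p21 and is a direct p53 target, had 58.1, 52.7 and 51.0 CPM with Atrx shRNA and 34.2, 39.0 and 35.1 CPM with empty vector at a region 1156 bp past its start (chr17:29094652-29095198). The groups were clearly apart (0.58 ± 0.13, adjusted p = 0.0144, edgeR). Bbc3, which encodes the BH3-only protein PUMA, another p53 target, had 94.6, 111 and 93.8 CPM with Atrx shRNA and 70.2, 67.0 and 65.9 CPM with empty vector at the region over its printed promoter (chr7:16309126-16311304). It rose by 0.56 ± 0.11 (adjusted p = 0.00307). Bax, the pore-forming member of the Bcl2 family, had 37.8, 39.2 and 38.6 CPM with Atrx shRNA and 22, 30.8 and 20.6 CPM with empty vector (chr7:45466295-45467054). Its Atrx shRNA libraries were nearly equal and the spread was in the empty vector libraries (0.64 ± 0.15, adjusted p = 0.021). Of 119 regions of 34 p53 target genes 3 rose and 0 fell (median 0.09), and of 85 regions of 25 Bcl2 family genes 2 rose and 0 fell, although the median of that list was -0.104. The shares called were 2.52% and 2.35%, against 0.271% over all regions. Without Atrx shRNA replicate 1 the medians were 0.031 for the p53 targets and -0.065 for the Bcl2 family. The call was lost without Atrx shRNA replicate 2 or empty vector replicate 2 at Bbc3 (adjusted p up to 0.148), without Atrx shRNA replicate 1 or 2 or any one of the empty vector libraries at Cdkn1a (up to 0.185), and without Atrx shRNA replicate 1 or 2 or empty vector replicate 1 or 3 at Bax (up to 0.28).

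Regions of another 2 inhibitor genes rose. Cdkn1b, which encodes p27, rose at a region 1.25 kb beyond its end (chr6:134926777-134927947), with 54.8, 55.9 and 53.2 CPM with Atrx shRNA and 35.1, 36.3 and 31.3 CPM with empty vector. Replicates were tight in both groups (0.67 ± 0.13, adjusted p = 0.00241), and the call held in each of the 9 fits that left out 1 library, with a largest adjusted p of 0.0475. Cdkn2c, which encodes the INK4 inhibitor p18, rose at the region over its printed promoter (chr4:109665116-109665949), with 35.2, 34.6 and 27.3 CPM with Atrx shRNA and 21.6, 17.3 and 15.7 CPM with empty vector (0.83 ± 0.17, adjusted p = 0.00332). Without Atrx shRNA replicate 1 or 2 or empty vector replicate 2 its adjusted p was up to 0.0964. Of 150 regions of 39 cell cycle genes, 3 rose and 0 fell (2.0%, against 0.271% over all regions), with a median of 0.06 (0.023 when Atrx shRNA replicate 1 was left out and 0.095 when empty vector replicate 3 was), against -0.017 over all regions tested, and the 3 are those of Cdkn1a, Cdkn1b and Cdkn2c.

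Genes of the hormone secretion machinery gave 3 rises and 0 falls among 290 regions of 40 genes, or 1.03% called, against 0.271% over all regions. Snap47, a SNARE protein gene, rose at a weak region inside the gene to 13.8, 6.74 and 5.91 CPM with Atrx shRNA, against 1.84, 1.95 and 3.12 CPM with empty vector (1.92 ± 0.37, adjusted p = 0.00226). Replicate 1 was far above the other Atrx shRNA libraries, and the call was lost without it or without empty vector replicate 1 or 2 (adjusted p up to 0.252, log2 fold change 1.4 to 2.21). Cplx2, which encodes the exocytosis clamp complexin, stood at 77.8, 86.3 and 72.8 CPM with Atrx shRNA and 57.7, 57.4 and 57.3 CPM with empty vector, 1.06 kb past its start (0.46 ± 0.12, adjusted p = 0.0409). Rims2, an active zone scaffold gene, rose at a region 17.02 kb outside the gene (0.92 ± 0.24, adjusted p = 0.0453). Among 431 regions of G protein and cAMP signalling genes 0 rose and 1 fell (0.232%). That was the region over the printed promoter of Gng7, a G protein gamma subunit gene, with 21.5, 26.4 and 19.9 CPM with Atrx shRNA and 35.1, 38.3 and 39.3 CPM with empty vector (chr10:81014656-81015287; -0.73 ± 0.16, adjusted p = 0.00852). Among 136 autophagy gene regions the 1 that fell (0.735% called, against 0.271% over all regions) was at the 3' end of Rubcn. The calls at Cplx2 and Rims2 were each lost in 6 of the 9 fits that left out 1 library (adjusted p up to 0.361 and 0.394), and that at Gng7 without Atrx shRNA replicate 1 or 3 or empty vector replicate 1 or 2 (up to 0.118).

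Among genes that work with ATRX, 1 region fell and 0 rose (0.629%, against 0.271% over all regions). Of 39 genes of ATRX, DAXX and heterochromatin partners, 37 matched the annotation and had 159 tested regions, of which 24 (15.1%) had an unadjusted p under 0.05, against 9.6% of all regions (median 0.105, 97 positive; median 0.054 without Atrx shRNA replicate 1). The fall was 48.09 kb before Atf7ip, which encodes a partner of the histone methyltransferase SETDB1, with 10.4, 7.41 and 9.99 CPM with Atrx shRNA and 22.1, 14.3 and 17.7 CPM with empty vector (-0.95 ± 0.24, adjusted p = 0.0342). It was lost in 6 of the 9 fits that left out 1 library, with adjusted p up to 0.404. The 4 regions of Daxx ran between -0.10 and 0.61 (smallest adjusted p 0.634). Both edgeR and DESeq2 called 0 regions in either direction in lists of chromatin remodelers (328 regions, 36 at an unadjusted p under 0.05 in edgeR), telomere and DNA repair genes (144, 12), imprinted genes (249, 18), interferon and cGAS-STING genes (104, 11) and the unfolded protein response (110, 11). The same held for glycolysis (117, 14), immediate early genes (130, 18), ion channels (354, 35), receptors that control glucagon secretion (129, 12), delta and PP cell genes (37, 3) and acinar, duct and stroma markers (77, 5). In the Wnt pathway (215, 23) edgeR called 0 and DESeq2 1. Over all regions 9.6% had an unadjusted p under 0.05, and in these lists the share was between 6.49% in the acinar, duct and stroma markers and 13.8% in the immediate early genes. The first 3 Mb with regions on each autosome, on the centromere side, held 1 region that rose and 1 that fell of 2290, and the last 3 Mb held 7 and 2 of 2572. These are 0.0437% in each direction for the first and 0.272% and 0.0778% for the last, against 0.197% and 0.0747% of all regions.

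Clustered gene families differed in their medians. Histone cluster genes had 56 tested regions with a median of 0.212 (0.187 with TMM, 0.343 without Atrx shRNA replicate 3), 47 of them positive, and 2 rose (3.57%, against 0.271% over all regions): near H2ac15 (1.28 ± 0.33, adjusted p = 0.0478) and 12.66 kb from H4c8 (0.80 ± 0.19, adjusted p = 0.0219). The clustered protocadherins, adhesion genes of neurons, had a median of -0.217 over 23 regions (-0.247 with TMM, -0.332 when replicate 2 of Atrx shRNA was left out and -0.089 when that of empty vector was), with 4 positive and 0 calls by edgeR (1 at an unadjusted p under 0.05) or DESeq2. Of 1062 regions of Zfp zinc finger genes, whose 3' exons are known to be bound by ATRX in human cells, 4 rose and 0 fell, at Zfp239, Zfp692, Zfp658 and Zfp607b. That is 0.377%, near the 0.271% over all regions, and their median was 0.008. The region at an end of Zfp239 had 7.57, 8.84 and 5.46 CPM with Atrx shRNA and 1.27, 2.42 and 2.66 CPM with empty vector (1.75 ± 0.39, adjusted p = 0.0124). The region at an end of Zfp692, which also belongs to Zfp672, rose by 1.38 ± 0.35 (adjusted p = 0.0385). With Smndc1 shRNA the Zfp239 region had 5.08, 9.19 and 5.47 CPM and the Zfp692 region 5.93, 8.81 and 8.37 CPM. None of the 4 Zfp regions was called between Atrx shRNA and Smndc1 shRNA. The adjusted p was 0.942 at Zfp239, 0.971 at Zfp692, 0.533 at Zfp658 and 0.569 at Zfp607b (edgeR). Ribosomal protein genes (171 regions, median 0.048, 20 at an unadjusted p under 0.05) and Hox clusters (33 regions, 0.106, 1) gave 0 calls in both tools; the Hox median was -0.019 without Atrx shRNA replicate 3 and 0.27 without empty vector replicate 3. Among 367 regions of splicing factors 1 rose (0.272%), 1.08 kb past the start of Srsf1, to 63.6, 47.4 and 44.1 CPM with Atrx shRNA against 29.9, 37.4 and 30.8 CPM with empty vector (0.66 ± 0.14, adjusted p = 0.00551). The other lists with 1 rise each were cholesterol synthesis (Mvk, 0.51), keratins (Krt8, 0.87) and olfactory and vomeronasal receptors (Olfr1329, 2.18), and synaptic adhesion had 1 fall (Cdh9, -1.59). The shares called in these lists were 0.943%, 1.12%, 0.324% and 0.205%, against 0.271% over all regions. The Srsf1 call was lost without Atrx shRNA replicate 1 or empty vector replicate 1 (adjusted p up to 0.312). The others of this paragraph were each lost in 4 to 7 of the 9 fits that left out 1 library, with adjusted p up to 0.451 at Zfp692.

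A larger share of the rises than of all tested regions lay past transcription starts, a pattern that was looked for after the called regions were seen. Of 153 regions that rose on chromosomes with annotated starts, 35 (22.9%) had their midpoint 500 to 3000 bp past a start, where 3.05% of all tested regions lie, and 0 of the 59 that fell lay there. Within 250 bp of a start lay 10 of 153 that rose (6.54%) and 16 of 59 that fell (27.1%), where 9.1% of all tested regions lie. Regions there are strong, with median levels of 37.48 CPM before and 32.86 CPM past the start, against 5.56 CPM over all regions. Falls were 0.291% and 0.164% of them. By level alone, falls were 0.311% of the strongest 10% of all regions and 0.274% of the next 10%. The part of level in these shares was not tested. The 35 regions past a start include those of Cdkn1a, Nkx6-1, Srsf1 and Cplx2 above. They also include, named after their values were seen, Ptch1, the Hedgehog receptor gene (0.64 ± 0.13, adjusted p = 0.00332), Cdc34, a ubiquitin-conjugating enzyme gene (0.65 ± 0.13, 0.00332), Mxi1, a MAX partner that opposes Myc (0.81 ± 0.16, 0.00226), and Pou2f1, which encodes the octamer factor Oct-1 (0.71 ± 0.15, 0.00659). Starts whose region fell, some named in the same way, include those of Aspm, a spindle pole gene (-0.58 ± 0.14, adjusted p = 0.0272), Map9, a microtubule protein gene (-0.49 ± 0.12, 0.02), Mapre1, which encodes the microtubule end-binding protein EB1 (-0.46 ± 0.12, 0.0409), and Fhdc1, a formin gene (-0.83 ± 0.20, 0.0293). Other starts whose region fell were those of Gng7 above, Spag4 (-0.61 ± 0.15, adjusted p = 0.0282, edgeR), Ctbs (-0.61 ± 0.15, 0.0368) and Cyp46a1 (-0.55 ± 0.14, 0.0368). The starts named here are only part of the 16 that fell, so no shared function is read from them. The Fhdc1 promoter printed above had 11.8, 11.9 and 14.7 CPM with Atrx shRNA and 27.7, 20.4 and 20.1 CPM with empty vector. The calls named here that are not described above were each lost in 2 to 7 of the 9 fits that left out 1 library. Mapre1 was lost in 7 and Mxi1 in 2, and the adjusted p was up to 0.405 at Fhdc1 and 0.458 at Ctbs (edgeR).

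The levels beside and at starts were then compared over all regions, called or not. For each library, the median level of the 1616 regions 500 to 1500 bp past a start was set against that of the 7093 regions within 250 bp of a start, both as log2 deviations from the mean of the 9 libraries. This flank minus start difference was 0.148, 0.105 and -0.006 in Atrx shRNA replicates 1, 2 and 3, and -0.107, -0.126 and -0.142 in empty vector replicates 1, 2 and 3. Every Atrx shRNA library was above every empty vector library, although Atrx shRNA replicate 3 was near 0. The means were 0.082 ± 0.08 with Atrx shRNA and -0.125 ± 0.018 with empty vector (SD, n = 3 each), a difference of 0.207 on the log2 scale. The exact two-sided permutation p was 0.1, the smallest that 3 against 3 can give. With TMM the values were 0.001, 0.088 and 0.137 with Atrx shRNA and -0.156, -0.193 and -0.009 with empty vector (difference 0.195, exact p = 0.1). Without the called regions the difference was 0.198 with trended offsets and 0.185 with TMM, where the groups overlapped (exact p = 0.2). The 949 regions 500 to 1500 bp before a start gave 0.13 (exact p = 0.1). The Smndc1 shRNA libraries had 0.024, 0.136 and 0.018, within the range of the Atrx shRNA values. Atrx shRNA minus Smndc1 shRNA was 0.023 (exact p = 0.9), so the pattern was not shown to be particular to Atrx shRNA.

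**Figure D3:**
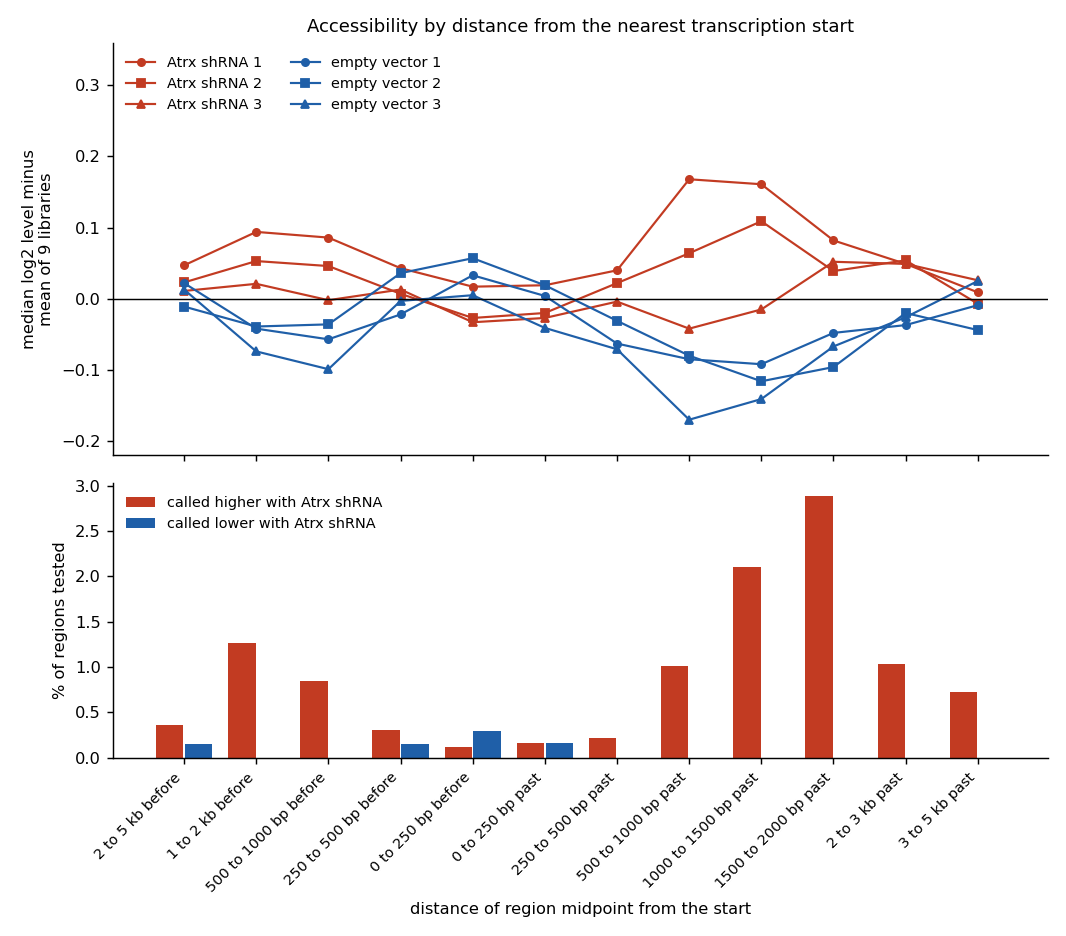
Top, median log2 level minus the mean of 9 libraries (vertical axis) in bins of distance from the nearest transcription start (horizontal axis) for 3 Atrx shRNA and 3 empty vector libraries; bottom, percent of tested regions in each bin called higher or lower with Atrx shRNA. From 500 to 1500 bp past a start every Atrx shRNA library lies above every empty vector library, and 2.1% of regions 1000 to 1500 bp past a start rose while 0 fell.

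The promoters at called starts were described by their letters, on the same windows as those printed. The 10 starts whose region rose had a median of 70.2% G and C (44.0% to 74.7%), the 16 whose region fell 61.2% (52.7% to 72.7%), and all 7093 starts with a tested region 62.0%. The letters CCAAT, on either strand, were present in 3 of the 10 that rose and 11 of the 16 that fell, against 41.3% of tested starts and 37.4% of the 32851 promoters in the table. The GC box GGGCGG was present in 6 of 10 and 13 of 16, against 68.8% of tested starts and 35.7% of the table. Gng7, whose region fell, carries 2 CCAAT boxes and 5 GC boxes. Bbc3 has 4 GC boxes and 0 CCAAT boxes. With 10 and 16 promoters these shares are a description and no test was made of them.

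Chromosome 11 held more of the rises than its share of regions. It carried 34 of the 158 (21.5%) with 9.56% of the tested regions, and 6 of the 60 that fell. Its calls include the region with the smallest adjusted p, 6.9 kb from Rdm1, a gene related to the recombination mediator RAD52, and Fignl1, a recombination ATPase gene, both named after their values were seen. They also include regions at Alkbh5, an eraser of N6-methyladenosine named in the same way, Msi2, an RNA-binding protein gene, Wipf2, which regulates actin, and Srsf1. Rises were 0.556% of the regions of chromosome 13 and 0.386% of those of chromosome 17, against 0.197% over all. Chromosomes 2 and 3 held 10 and 8 of the falls (0.162% and 0.218% of their regions, against 0.0747% over all). X held 0 rises and 0 falls among 1275 regions. The median level of chromosome 11 differed between replicates more than between groups. It was -0.085, -0.002 and 0.143 (log2 from the mean of 9 libraries) in Atrx shRNA replicates 1, 2 and 3, and -0.121, -0.118 and 0.104 in empty vector replicates 1, 2 and 3. The groups overlapped, and replicate 3 was high in both. On chromosome 13 replicate 3 was low in both, with 0.216, 0.065 and -0.132 with Atrx shRNA and 0.096, 0.106 and -0.123 with empty vector. The part of these chromosome levels in the calls was not tested.

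**Figure D4:**
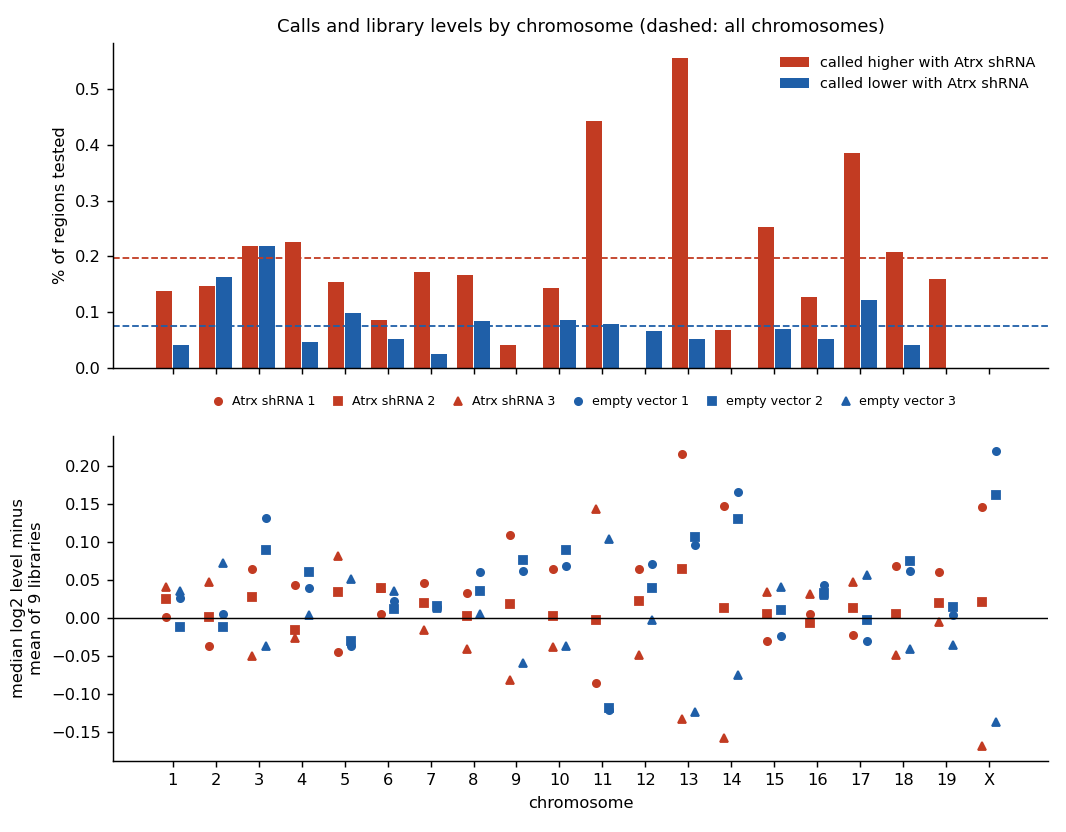
Top, percent of tested regions called higher or lower with Atrx shRNA on each chromosome, with dashed lines at 0.197% and 0.0747% for all regions; bottom, median log2 level of each chromosome minus the mean of 9 libraries in 3 Atrx shRNA and 3 empty vector libraries. Chromosomes 11, 13 and 17 have the largest shares of rises, and replicate 3 of both groups stands apart on chromosomes 11, 13, 14 and X.

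Regions whose call held in every fit that left out 1 library were few: 3 of the 218, named after their values were seen. The region near Rdm1 (chr11:101642994-101643598) had 35.4, 32.0 and 40.1 CPM with Atrx shRNA and 17.5, 18.1 and 16.5 CPM with empty vector (1.04 ± 0.16, adjusted p = 2.94e-05, at most 0.00667 in the leave-outs). The groups did not overlap. A region inside Msi2 (chr11:88594717-88595781) had 54.5, 53.5 and 48.7 CPM with Atrx shRNA and 32.4, 25.6 and 28.1 CPM with empty vector (0.87 ± 0.14, adjusted p = 0.000115, at most 0.0457). The third was that of Cdkn1b. With Smndc1 shRNA the region near Rdm1 had 32.3, 34.7 and 27.9 CPM, and that inside Msi2 had 36.5, 64.3 and 38.6 CPM. Atrx shRNA over Smndc1 shRNA was not called at either (0.17, adjusted p = 0.801, and 0.16, adjusted p = 0.777, edgeR). Their rises were thus not shown to be particular to Atrx shRNA. A further 7 held in 8 of 9, at Rubcn, Igsf11, Alkbh5, Mdga1, Mif4gd, Fignl1 and Mrpl54. Msi2 had another call beside the first and 1 before its start (0.86 and 1.05). The sign was kept in all leave-outs by 218 of 218, which adds no support, since the regions were chosen on the same libraries.

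Set directly against the Smndc1 shRNA libraries, 13 of the 218 regions also differed, 9 lower and 4 higher with Atrx shRNA. In that comparison 475 of all tested regions (0.591%) differ. The 218 were chosen on the same Atrx shRNA libraries that enter it, so a larger share among them is no separate support. Against empty vector, the 158 regions that rose had a median log2 fold change of 0.847 with Atrx shRNA and 0.551 with Smndc1 shRNA, and the 60 that fell -0.649 and -0.408; both comparisons share the empty vector libraries, and the regions were chosen on the first. Each of the 13 went the same way against both groups, with the same Atrx shRNA libraries on 1 side of both comparisons. At Gcg the Smndc1 shRNA libraries had 35.4, 43.1 and 39.9 CPM, so the Atrx shRNA libraries (15.4, 19.8 and 24.4 CPM) were below both other groups without overlap. The log2 fold change of Atrx shRNA over Smndc1 shRNA was -1.0 ± 0.16 (adjusted p = 4.67e-06, edgeR), and it was called in all 9 leave-outs. Rubcn, which encodes the autophagy inhibitor Rubicon, had 44.6, 45.9 and 49.1 CPM with Atrx shRNA, 64.3, 71.6 and 76.6 CPM with Smndc1 shRNA and 71.1, 69.1 and 73.5 CPM with empty vector at its 3' end (chr16:32821970-32822650). Its log2 fold change was -0.61 ± 0.12 over Smndc1 shRNA (adjusted p = 0.000952) and -0.62 ± 0.12 over empty vector (adjusted p = 0.00241). The second call was lost without Atrx shRNA replicate 1 (adjusted p = 0.0806), the first in 0 of 9 leave-outs. With TMM 3 of the 13 were called against Smndc1 shRNA: Dppa2, Camkmt and Alkbh3.

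The differences with the smallest adjusted p, named after their values were seen, lay 48.46 kb from Dppa2 and inside Camkmt. The region near Dppa2, a gene of pluripotent cells (chr16:48367969-48368656), had 25.2, 24.3 and 29.8 CPM with Atrx shRNA, 8.2, 6.59 and 8.29 CPM with Smndc1 shRNA and 10.9, 17.1 and 13.9 CPM with empty vector. It rose by 1.78 ± 0.22 over Smndc1 shRNA (adjusted p = 1.29e-09) and by 0.91 ± 0.21 over empty vector (adjusted p = 0.0161). The region inside Camkmt, which encodes the calmodulin methyltransferase (chr17:85180451-85181119), had 8.95, 6.44 and 9 CPM with Atrx shRNA, 22.8, 27.6 and 18.8 CPM with Smndc1 shRNA and 15.9, 16.4 and 15.0 CPM with empty vector. It fell by 1.5 ± 0.23 on the log2 scale against Smndc1 shRNA (adjusted p = 1.69e-06) and by 0.95 ± 0.23 against empty vector (adjusted p = 0.0245). Kcnmb2, a beta subunit gene of calcium-activated potassium channels, was higher by 0.90 ± 0.18 than with Smndc1 shRNA (adjusted p = 0.000864) and Alkbh3, an alkylation repair gene, by 1.1 ± 0.23 (0.00156). Brd2, a bromodomain gene, was higher at its start by 0.47 ± 0.13 (0.0387), and Flrt2, a fibronectin leucine-rich transmembrane gene, lower at a region 155.34 kb away by a log2 fold change of -1.86 ± 0.42 (0.00569). The calls against empty vector were lost without Atrx shRNA replicate 1, 2 or 3 or empty vector replicate 1 for Dppa2 (adjusted p up to 0.287), and without Atrx shRNA replicate 1 or 2 or empty vector replicate 1 or 2 for Camkmt (up to 0.296).

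**Figure D5:**
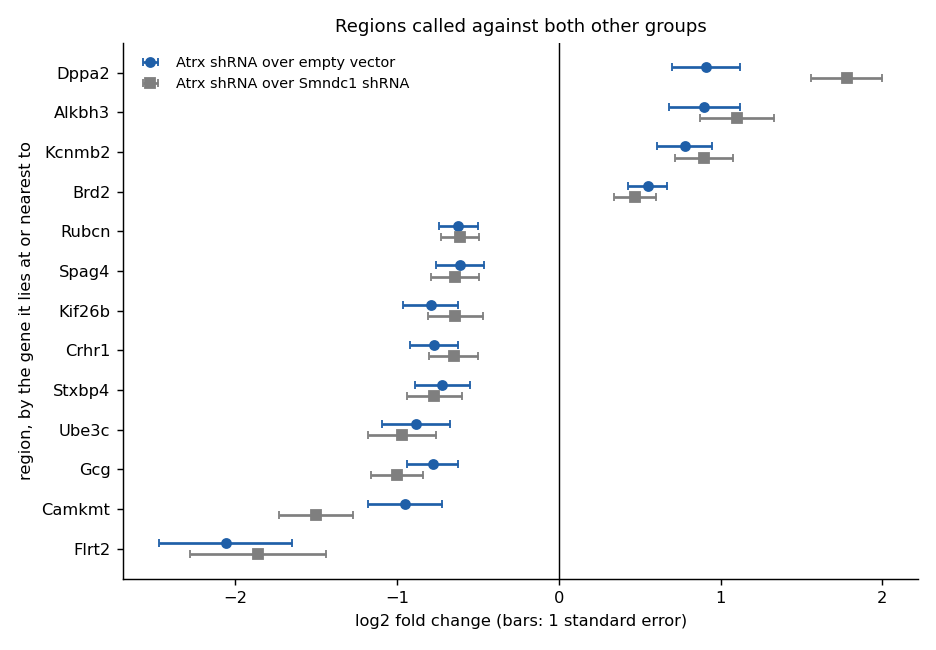
Log2 fold change (horizontal axis; bars are 1 standard error) of Atrx shRNA over empty vector (circles) and over Smndc1 shRNA (squares) at the 13 regions called in both comparisons, named by gene (vertical axis). The 9 regions lower with Atrx shRNA run from Rubcn and Spag4 to Flrt2, and the 4 higher ones are Brd2, Kcnmb2, Alkbh3 and Dppa2; the comparisons share the Atrx shRNA libraries.

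For the islet and cell cycle regions named next, unlike that of Gcg, the comparison with Smndc1 shRNA was not called, and the values stand side by side. Irx1 inside the gene had 22.3, 18.3 and 24.6 CPM with Smndc1 shRNA, near the Atrx shRNA values (Atrx shRNA over Smndc1 shRNA -0.10, adjusted p = 0.93). Nkx6-1 had 29.1, 31.3 and 28.1 CPM with Smndc1 shRNA (0.05, adjusted p = 0.957), Cdkn1a 50.4, 58.8 and 49.3 CPM (0.03, 0.97) and Cdkn1b 50.5, 61.8 and 48.7 CPM (0.02, 0.978). Both shRNA groups stood above the empty vector group at these regions, and the comparisons with empty vector share its 3 libraries. Mafa had 49.5, 48.5 and 51.5 CPM with Smndc1 shRNA, between the Atrx shRNA and the empty vector libraries (-0.21, adjusted p = 0.644). The regions of Pax6, Nkx2-2, Bbc3, Bax and Cdkn2c were not called either (adjusted p against Smndc1 shRNA 0.921, 0.766, 0.843, 0.598 and 0.786, edgeR).

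The largest changes in either direction were at weak regions outside gene ends. The highest lay 5.45 kb from Olfr1329, an olfactory receptor gene, with 7.87, 5.62 and 3.62 CPM with Atrx shRNA and 2.09, 0.937 and 0.782 CPM with empty vector (2.18 ± 0.51, adjusted p = 0.0206), followed by Gm20939 (2.05), Snap47 and Arid5b (1.80). The lowest was that near Flrt2, with 0.938, 2.30 and 1.90 CPM with Atrx shRNA and 9.51, 7.57 and 4.70 CPM with empty vector (-2.06 ± 0.41, adjusted p = 0.00332). Ptpdc1 (-1.76), Cdh9 (-1.59), Gm5148 (-1.53), Ptger3 (-1.52) and Aldh9a1 (-1.08) followed. At gene ends the highest after Zfp239 were Gm39270 (1.53), Zfp692 (1.38), Dcaf7 (1.31) and Wdr88 (1.28), and the lowest included Fhdc1, Gcg, Tmem241 (-0.75) and Gng7. Wdr88, a WD repeat gene, had 21.3, 25.2 and 18.7 CPM with Atrx shRNA and 12.3, 8.24 and 6.05 CPM with empty vector, a clear gap (1.28 ± 0.23, adjusted p = 0.00121). Of 11 groups of calls with starts within 50 kb, holding 23 regions, 9 rose throughout, 1 fell throughout (Stxbp4) and 1 was mixed (Zdhhc25). Since 158 of the 218 calls rose, many groups would rise throughout anyway, and the share to expect was not computed. Several groups are close neighbours, such as the regions at Irx1, which span 3.55 kb. The 3 regions around T and Pde10a, which span 43.49 kb, all rose, and so did the pairs at Brd2, Med26, Tcf4 and Mdga1, all named after their values were seen. The calls in this paragraph were each lost in some fits that left out 1 library, and for Olfr1329 the adjusted p was then up to 0.297, for Flrt2 0.129 and for Wdr88 0.0594.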

How the data were processed

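The authors deposited raw counts of 9 ATAC-seq libraries in consensus regions, whole numbers with no scaling, with region coordinates on mm10 (GRCm38), per the file headers and the submitters' processing notes. Those notes name MACS2 2.2.7.1, Bowtie2 2.4.4, bedtools 2.27.1, SAMtools 2.8.0 and deepTools 3.5.1. What each did, how regions were merged and what was counted (reads or insertions) is not stated there. All per-sample columns were matched to labels (0 unmatched).

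Counts were tested with edgeR 4.0.16 by its quasi-likelihood F test (R 4.3.3; filterByExpr with a minimum count of 10, robust, 9 libraries in 1 fit, Benjamini-Hochberg over 80345 regions), with TMM factors or with trended offsets (loess, span 0.3, of log2 count plus 0.5). The scripts were tested on simulated data. Levels are CPM computed with the offset-corrected library size. P-values measure only the spread between these libraries, which the labels call individual biological replicates. The depth was 5290810 to 8145228 counts in the 6 libraries. Members, lists, the offsets and the tests were chosen with earlier results of these data known.

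Named regions passed the test with trended offsets, a mean log2 CPM of at least 1 and no overlap of 3 and 3 libraries. Of those, the 10 highest and 10 lowest at gene ends and the 6 highest and 6 lowest elsewhere were named, with up to 6 calls of each of 32 gene lists and the 25 key genes; other regions are said to be chosen after their values were seen. Gene bounds, starts (17274 of 21631 coding genes) and promoters are RefSeq GRCm38.p6; starts on chromosome 18 were not used here. A region belongs to a gene that it overlaps or that is nearest within 50 kb, and otherwise takes the name of the nearest gene. DESeq2 1.42.0, limma voom 3.58.1, other filters and left-out libraries were alternatives. Tables and figures used matplotlib 3.10.9, scipy 1.17.1, numpy 2.4.6 and pandas 2.3.3 under Python 3.11.15. Some items covered by the naming rule are not reported here.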

Additional observations from a re-analysis of the deposited data

How the results depend on the processing

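The count of 218 called regions with trended offsets depends on the libraries. Leaving out 1 library gave 21 to 451 calls: 21, 30 and 283 without Atrx shRNA replicate 1, 2 and 3, 24, 37 and 159 without empty vector replicate 1, 2 and 3, and 147, 268 and 451 without Smndc1 shRNA replicate 1, 2 and 3; where a group was left with 2 libraries the spread was pooled over all groups. TMM factors gave 0, limma voom 0, the 6 libraries alone 402, a mean count of at least 50 gave 121, leaving out replicate 3 of every group 388, an adjusted p under 0.01 gave 49 and under 0.1 gave 423, while DESeq2 gave 184 (162 shared) and no filter 222. With TMM, the count of 0 became 18 with 6 libraries, 2 with a mean count of at least 50, 91 without replicate 3 of every group and 0 to 22 when 1 library was left out (for replicate 3, 10 when the library left out was Atrx shRNA, 3 when it was empty vector and 22 when it was Smndc1 shRNA). No alternative turned the sign of any of the 57 named regions, which were chosen on the same counts. TMM and limma voom ended all 57 calls. The causes were not tested.

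Atrx shRNA and empty vector share replicate numbers, but deviations from the group means of same-numbered libraries correlated at 0.254, 0.026 and 0.419, not all over 0.1, and Atrx shRNA replicate 2 did not correlate best with its own number, so the numbers were not taken as pairs. A replicate block gave 791 calls with trended offsets, 231 with TMM and 26 of the 218 regions against Smndc1 shRNA. The 13 regions called against Smndc1 shRNA were 3 with TMM, 0 with limma voom and 6 to 17 when 1 library was left out (6 and 8 without Atrx shRNA replicates 1 and 2). These alternatives, TMM apart, were added after seeing the data. The difference of 0.207 between flank and start ran from 0.13 to 0.208 over the alternatives, all chosen after seeing the data. Medians of the 32 gene lists moved by over 1 SD for 1 to 7 lists when 1 Atrx shRNA or empty vector library was left out, and for 3 with TMM. Calls were rare in the weaker regions; the part of depth in this was not tested.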
